A study of Mus musculus with 5 samples.

Results

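The genes described here encode proteins of the mitochondrial ribosome and of the machines that import proteins into mitochondria. They were chosen by name alone: genes with exactly 1 symbol per probe whose symbol begins with Mrpl, Mrps, Timm or Tomm followed by a digit, and whose probes gave a value on all 5 arrays. Of the 8637 genes measured on all 5 arrays, 95 met the rule: 45 named for the large ribosomal subunit (Mrpl), 27 for the small subunit (Mrps), 14 for import across the inner membrane (Timm) and 9 for import across the outer membrane (Tomm). The annotation listed 96 such symbols, and Mrpl34 was the one that missed an array. It had log2 ratios of 0.02, -0.65, -0.21 and -0.29 at 0, 2, 7 and 21 h.

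The series followed macrophages grown from C3H/ARC mouse bone marrow with human CSF-1, the cytokine that drives their differentiation in vitro. The cells were unstimulated (0 h) or exposed to lipopolysaccharide (LPS) of S. minnesota, the endotoxin of Gram-negative bacteria, given at 10 µg/ml for 0.5, 2, 7 or 21 h. Channel 2 of each two-colour array held RNA of a C57BL6/J whole embryo of 17.5 days, a mixture of tissues, so each value is a ratio to that mixture and not a level in macrophages alone. Each time was measured on 1 array, without replicates. No p-value can be formed, and precision is limited by having 5 arrays. How many mice stood behind each RNA is not stated in the labels.

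The mitochondrial ribosome makes the few subunits of the respiratory chain and ATP synthase that mitochondrial DNA encodes. All of its own proteins are encoded in the nucleus, made in the cytosol and imported, as are nearly all other mitochondrial proteins. The translocase of the outer membrane (TOM) is the entry gate. Behind it, small chaperones of the intermembrane space escort hydrophobic proteins, and inner membrane translocases (TIM) either insert carriers into the membrane or pull proteins with a presequence into the matrix. In macrophages, LPS is known to shift energy metabolism from respiration towards glycolysis.

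The deposited values are log ratios, read here as log10 and multiplied by 3.32 to give log2 ratios. The labels do not state the log base, the centring or the direction of the ratio. If the base was 2, every log2 value below is 3.32 times too large. Macrophage over embryo is the likely direction, since 15 macrophage markers had a median log2 ratio of 1.68, 1.34, 1.32, 1.49 and 1.26 at 0, 0.5, 2, 7 and 21 h, and 43 whole-embryo markers one of -1.53, -2.15, -1.74, -1.88 and -1.80. Were it the other way, higher and lower would exchange throughout. The median deposited value over all probes was 0.0412, 0.0286, 0.0501, -0.0237 and -0.0018 in order of time. Here each array's median was subtracted. The stimulus was visible in these RNAs: over 0.5, 2, 7 and 21 h, 9 genes of the LPS response lay above their 0 h value by a median of 0.79, 1.39, 3.0 and 2.64 on the log2 scale, among them Cxcl10 with a change of 5.42 and Il1a with 5.21 at 7 h.

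The arrays at 0.5 h and 2 h carried high ratios that followed the probe number. In 94 of 207 runs of 96 consecutive probe numbers, 10% of probes or more were raised 2-fold over 0 h on one of these arrays. These are called the affected runs. They held 75 of the 195 member probes (38.5%), against 45.3% of all probes. Of the members, 20 had all probes in such runs, 33 had probes inside and outside them, and 42 had none inside. The main early medians and counts are therefore also given without these runs, which lowers early values by the way the runs were picked. Cxcl10 and Il1a each rest on 1 probe, which lies in such a run. Without the affected runs, 4 genes of the LPS response were left. Their median change was 0.32, 0.45, 0.95 and 0.58 at 0.5, 2, 7 and 21 h.

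Promoter sequence was taken from RefSeq (GRCm38.p6) as windows of 250 bases before to 50 bases after each annotated start, and 84 of the 95 members had at least 1 window (92 windows in all). They are shown because nuclear genes for mitochondrial proteins are known for a few shared promoter motifs. These letters were searched on both strands: CGCNTGCGC for nuclear respiratory factor (NRF1), CCGGAAG for ETS family factors such as GABP, and AAGATGGC for YY1. The NRF1 letters stood in 19.6% of member windows, against 6.25% of all 32851 windows. The ETS letters stood in 35.9% of member windows against 8.86% of all, and the YY1 letters in 14.1% against 2.75%. For scale, windows of cytosolic ribosomal protein genes held the ETS letters in 35.5%, the YY1 letters in 10.5% and the NRF1 letters in 13.2%. Commoner elements differed less or ran the other way: GGGCGG (SP1) stood in 52.2% of member windows against 35.7% of all, CCAAT in 37.0% against 37.4%, and TATAAA in 7.61% against 13.6%. Member windows had a median GC content of 58.5%, against 52.7% for all windows, and how far base composition sets these shares was not tested.

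Below are the 200 bases before the start of the members whose ratio differed from 0 h by 2-fold or more at 7 h or 21 h and that had a window, then of outer membrane genes whose window held one of the 3 motifs. Tomm34, which has several annotated starts, also held the ETS letters and is not printed. Capitals mark matches to the NRF1, ETS or YY1 letters. Mrps30 is at chr13:118387253-118387452 (minus strand), Mrps12 at chr7:28741822-28742021 (minus), Mrps9 at chr1:42851033-42851232 (plus) and Tomm6 at chr17:47688387-47688586 (minus). Tomm20 is at chr8:126945922-126946121 (minus), Tomm22 at chr15:79670668-79670867 (plus) and Tomm70a at chr16:57121514-57121713 (plus).
Mrps30: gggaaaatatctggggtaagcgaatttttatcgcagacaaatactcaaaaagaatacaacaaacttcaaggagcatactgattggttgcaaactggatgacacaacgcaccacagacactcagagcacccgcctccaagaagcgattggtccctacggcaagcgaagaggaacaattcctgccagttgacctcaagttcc
Mrps12: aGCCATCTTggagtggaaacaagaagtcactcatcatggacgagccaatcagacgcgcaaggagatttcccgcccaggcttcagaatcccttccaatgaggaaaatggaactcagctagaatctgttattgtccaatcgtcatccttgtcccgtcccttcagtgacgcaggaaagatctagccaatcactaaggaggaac
Mrps9: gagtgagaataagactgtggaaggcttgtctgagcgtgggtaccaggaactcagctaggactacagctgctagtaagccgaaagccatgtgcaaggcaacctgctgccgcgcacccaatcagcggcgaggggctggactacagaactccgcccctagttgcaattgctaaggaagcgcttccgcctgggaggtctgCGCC
Tomm6: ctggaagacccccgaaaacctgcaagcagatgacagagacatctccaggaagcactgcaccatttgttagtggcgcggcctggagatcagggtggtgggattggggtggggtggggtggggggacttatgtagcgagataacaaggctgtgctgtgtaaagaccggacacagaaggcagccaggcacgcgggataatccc
Tomm20: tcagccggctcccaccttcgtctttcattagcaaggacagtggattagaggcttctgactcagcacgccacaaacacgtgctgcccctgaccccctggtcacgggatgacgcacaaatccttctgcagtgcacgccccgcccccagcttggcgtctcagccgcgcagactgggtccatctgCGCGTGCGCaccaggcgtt
Tomm22: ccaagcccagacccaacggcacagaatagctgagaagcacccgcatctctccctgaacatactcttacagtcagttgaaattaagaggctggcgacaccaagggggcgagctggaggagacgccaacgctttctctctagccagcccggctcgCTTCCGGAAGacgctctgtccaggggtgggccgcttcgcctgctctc
Tomm70a: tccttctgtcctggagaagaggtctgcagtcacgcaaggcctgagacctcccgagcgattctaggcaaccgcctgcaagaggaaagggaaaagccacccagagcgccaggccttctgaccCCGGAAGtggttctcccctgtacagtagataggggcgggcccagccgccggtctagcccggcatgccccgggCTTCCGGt

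In these 7 windows the matches took several forms. Tomm20 held 1 NRF1 match in the run of bases just before its start, and Tomm22 held a pair of overlapping ETS matches on opposite strands. Tomm22 also held an ETS match that lies after the start and is not printed. Tomm70a held ETS matches on both strands. In Mrps9 an NRF1 match ran across the annotated start, so that only its first 4 bases lie in the window printed. Mrps12 held a YY1 match at the far end of its window and an ETS match that lies after the start and is not printed. The windows of Mrps30 and Tomm6 held none of the 3 motifs, which says only that these letters are not in these bases. A match is a description of sequence, and no binding was measured here.

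As a set, the mitochondrial ribosome and import genes stayed close to their unstimulated ratios through 21 h of LPS. The median log2 ratio of the 95 members was -0.04, 0.09, -0.02, -0.06 and -0.07 at 0, 0.5, 2, 7 and 21 h, and that of all 8637 genes was -0.03, -0.03, -0.01, -0.04 and -0.02. The median change of the members was 0.13 at 0.5 h, -0.02 at 2 h, 0.03 at 7 h and -0.03 at 21 h. Over all genes it was 0.08, 0.07, -0.0003 and 0.02 at the same times. The single changes were also spread over a narrower range: the middle 50% of members spanned 0.33, 0.59, 0.39 and 0.39 log2 units at the 4 times, against 0.49, 0.71, 0.58 and 0.49 over all genes. Without the affected runs the members' median change was 0.08 at 0.5 h and -0.10 at 2 h over 75 genes, against 0.02 and -0.08 over all 5996 genes left. All 4 changes share the 0 h array.

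**Figure D1:**
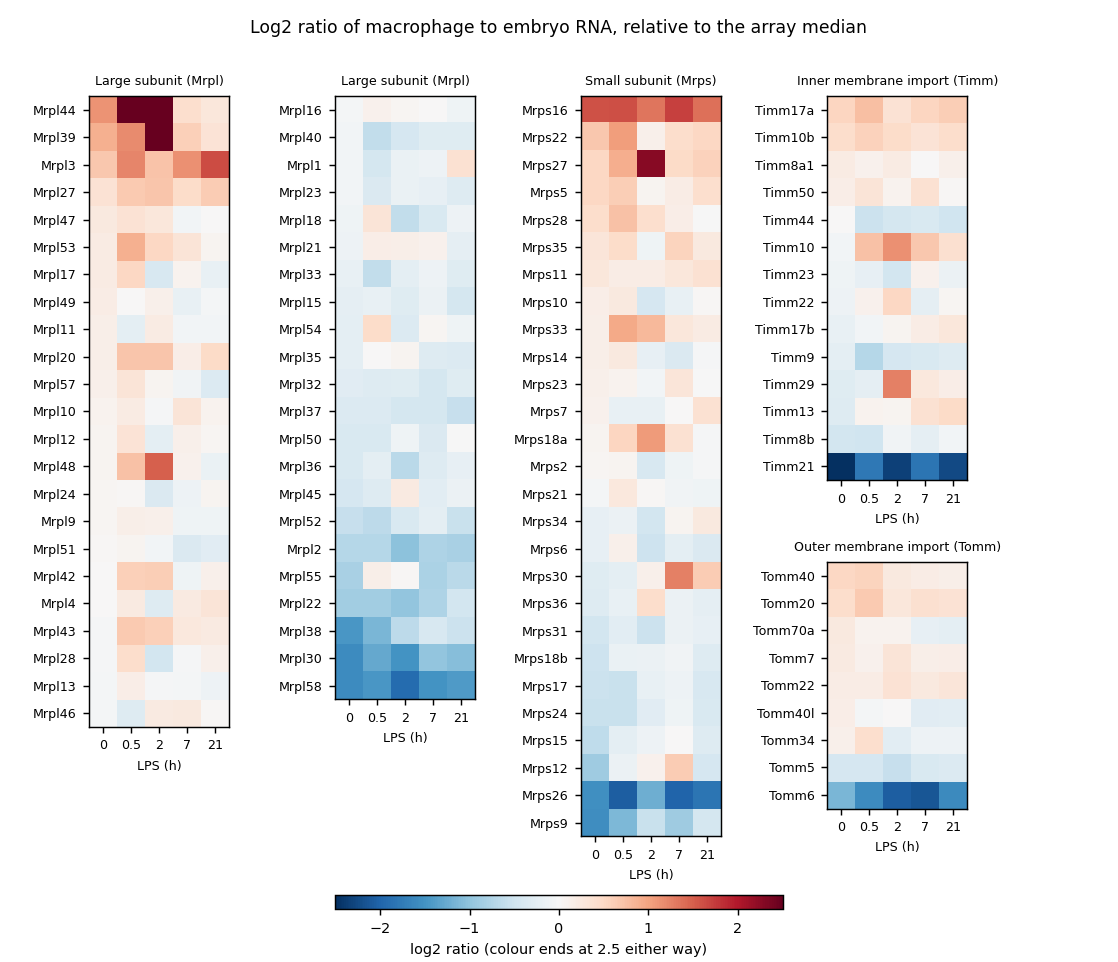
Colour shows the log2 ratio of macrophage to embryo RNA, relative to the array median, of each of the 95 members (down) at 0, 0.5, 2, 7 and 21 h of LPS (across), in 4 groups sorted by the ratio at 0 h; colours end at 2.5 either way. Most rows keep one colour across the 5 arrays, and Mrpl44, Mrpl39 and Mrps27 stand out at 2 h.

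Few members passed a 2-fold difference from 0 h at the later times. At 7 h, 3 of 95 lay at least 2-fold higher, against 4.08% of all genes, and 1 lay at least 2-fold lower, against 3.16% of all genes. At 21 h, 1 member passed this limit upward (3.05% of all genes) and none downward (1.45%). At 0.5 h it was 1 upward (5.95%) and none downward (1.01%), and at 2 h 8 upward (12.4%) and none downward (1.1%). With a 1.5-fold limit the counts higher and lower were 11 and 0 at 0.5 h (12.7% and 4.38% of all genes), 17 and 3 at 2 h (21.8% and 5.71%), 9 and 2 at 7 h (11.6% and 10.8%), and 5 and 1 at 21 h (9.12% and 6.48%). These counts are a rule of size, with 1 array per time, and no test stands behind them.

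**Figure D2:**
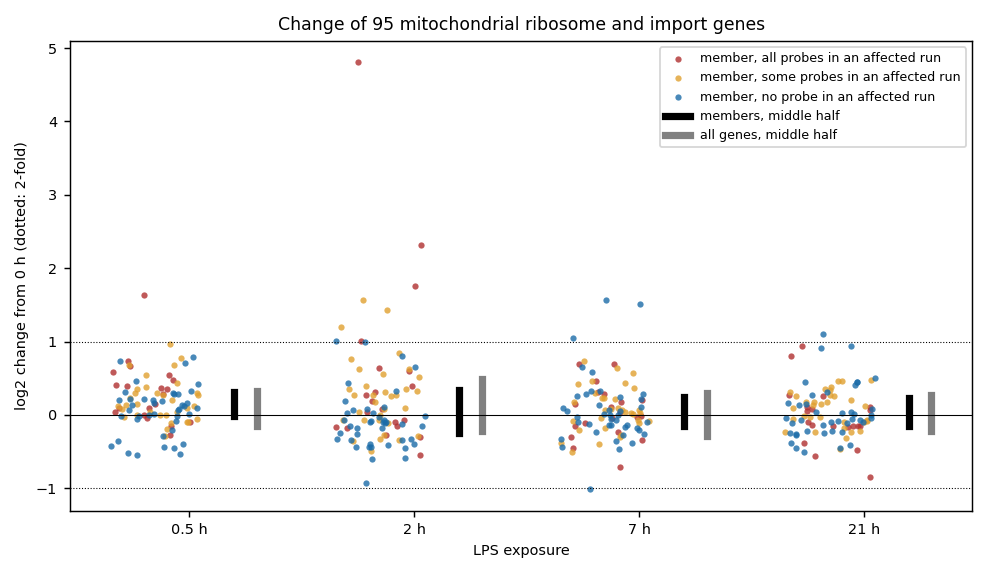
Each point is the log2 change of 1 of the 95 members from 0 h (vertical axis) at 0.5, 2, 7 or 21 h (horizontal axis), coloured by how many of its probes lie in affected runs; bars give the middle 50% of members and of all genes, and dotted lines mark 2-fold. The points furthest above the upper line at 2 h belong to members with all or some probes in affected runs, while those above it at 7 h and 21 h have no probe there.

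Before LPS, most members had a macrophage to embryo ratio near the array median. At 0 h, 2 members exceeded the array median by 2-fold or more (5.4% of all genes) and 7 lay at least 2-fold below it (7.06%). The SD over genes was 0.59 for members and 0.76 for all genes on the log2 scale. The highest ratio belonged to Mrps16, a small subunit protein with a bacterial counterpart, at 1.60. It stayed high on the other arrays, at 1.62, 1.34, 1.70 and 1.37 at 0.5, 2, 7 and 21 h. Mrpl44, a large subunit protein with an RNase III-like fold, had 1.13, and Mrpl39, a large subunit protein related to tRNA synthetases, had 0.89, both from probes in affected runs. Mrps22, a mitochondria-specific protein of the small subunit, had 0.68, from 1 probe that also lies in an affected run.

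The lowest ratio at 0 h was that of Timm21, a subunit of the presequence translocase that links it to the respiratory chain. Its 1 probe read -2.52, -1.79, -2.33, -1.84 and -2.26 in order of time, low on all 5 arrays. Mrpl58, a peptidyl-tRNA hydrolase that became a ribosomal subunit and rescues stalled ribosomes, read -1.57, -1.45, -1.92, -1.50 and -1.41. Mrps26 of the small subunit read -1.54, -2.07, -1.22, -2.01 and -1.82. These 3 of the 7 members at least 2-fold below the array median at 0 h, and Tomm6 with them, remained so at each later time. The other 3 did not: Mrps9, Mrpl38 and Mrpl30 stood at -0.44, -0.55 and -1.06 at 21 h, against -1.55, -1.46 and -1.57 at 0 h, and Mrpl30 stood at -0.98 at 7 h. The ratio does not say which member has more RNA, since each probe has its own response and the embryo differs from gene to gene.

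Among the 45 large subunit genes, the median change was 0.16, 0.02, 0.03 and -0.03 at 0.5, 2, 7 and 21 h. Over the 37 left without the affected runs it was 0.12 at 0.5 h and -0.10 at 2 h. At 7 h, 1 of the 45 passed 2-fold upward (4.08% of all genes) and none downward (3.16%). At 21 h none passed it upward (3.05%) or downward (1.45%). The gene past 2-fold at 7 h was Mrpl38, a mitochondria-specific protein on the outside of the large subunit. Mrpl38 had log2 ratios of -1.46, -1.14, -0.65, -0.40 and -0.55 at 0, 0.5, 2, 7 and 21 h, from 1 probe outside the affected runs. All 4 LPS arrays thus read above the 0 h array, 1.05 higher at 7 h and 0.91 higher at 21 h on the log2 scale. Against the 0.5 h array its change was 0.74 at 7 h and 0.59 at 21 h.

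Mrpl3, whose bacterial counterpart helps build the peptidyl transferase centre, had the highest change of the large subunit at 21 h. Its mean over 2 probes was 0.68, 1.22, 0.71, 1.14 and 1.62 in order of time, a change of 0.94 at 21 h (SD over probes 0.37). Both of its probes lie in affected runs, and each read higher at 21 h than at 0 h, by 0.68 and 1.21. At 2 h its mean change was 0.03, from probes that changed by -0.44 and 0.51. At the other end, Mrpl44 lay lower than at 0 h by 0.85 at 21 h and by 0.71 at 7 h, and Mrpl39 changed by -0.56 at 21 h. These lower late values are set against a 0 h array on which both genes were themselves among the highest members.

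Some large subunit genes held their ratio closely. Mrpl32, a protein whose processing by a membrane protease is known to gate ribosome assembly in yeast, had ratios of -0.27, -0.33, -0.31, -0.44 and -0.31. Its highest and lowest arrays were 0.17 apart. Mrpl16, measured by 3 probes, had a mean of -0.05, 0.11, 0.05, 0.01 and -0.11. Mrpl12, the stalk protein that is also known to bind the mitochondrial RNA polymerase, had 0.07, 0.34, -0.25, 0.13 and 0.04 over 3 probes. Its range of 0.60 was wider than the members' median range of 0.54, and its probes changed by 0.56, 0.01 and -0.38 at 7 h. None of these 3 genes stood 1.5-fold from 0 h at any time.

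The 27 genes named for the small subunit had a median change of 0.13, -0.02, 0.13 and 0.04, and the 21 left without the affected runs had 0.09 at 0.5 h and 0.01 at 2 h. Of the 27, 2 passed 2-fold upward at 7 h (4.08% of all genes) and 1 at 21 h (3.05%). None passed it downward at 7 h (3.16%) or at 21 h (1.45%). The highest was Mrps30, which structures of the mammalian ribosome place in the large subunit despite its name. Mrps30 had log2 ratios of -0.30, -0.24, 0.13, 1.27 and 0.64 at 0, 0.5, 2, 7 and 21 h, from 1 probe outside the affected runs. The 0 h and 0.5 h arrays were alike and the 7 h and 21 h arrays high, with a 2.97-fold difference from 0 h at 7 h and a 1.92-fold difference at 21 h. Set against the 0.5 h array, the log2 change was 1.5 at 7 h. Mrps30 was the only member past 2-fold higher in that comparison (2.72% of all genes).

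Mrps12, the counterpart of the bacterial protein at the decoding centre, was highest at 7 h and near its early values again at 21 h. Its ratios were -0.88, -0.14, 0.11, 0.63 and -0.43, so that the 7 h array was 2.85-fold above 0 h and the 21 h array 1.37-fold above it. Between 7 h and 21 h it changed by -1.06, the single member past 2-fold in that comparison, in which 0 members lay at least 2-fold higher (1.82% of all genes) and 1 lower (1.12%). Mrps9, a protein of the small subunit head, had ratios of -1.55, -1.12, -0.55, -0.89 and -0.44. All 4 LPS arrays read above 0 h, with changes of 1.0 at 2 h, 0.65 at 7 h and 1.11 at 21 h. Mrps12 and Mrps9 each rest on 1 probe outside the affected runs.

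**Figure D3:**
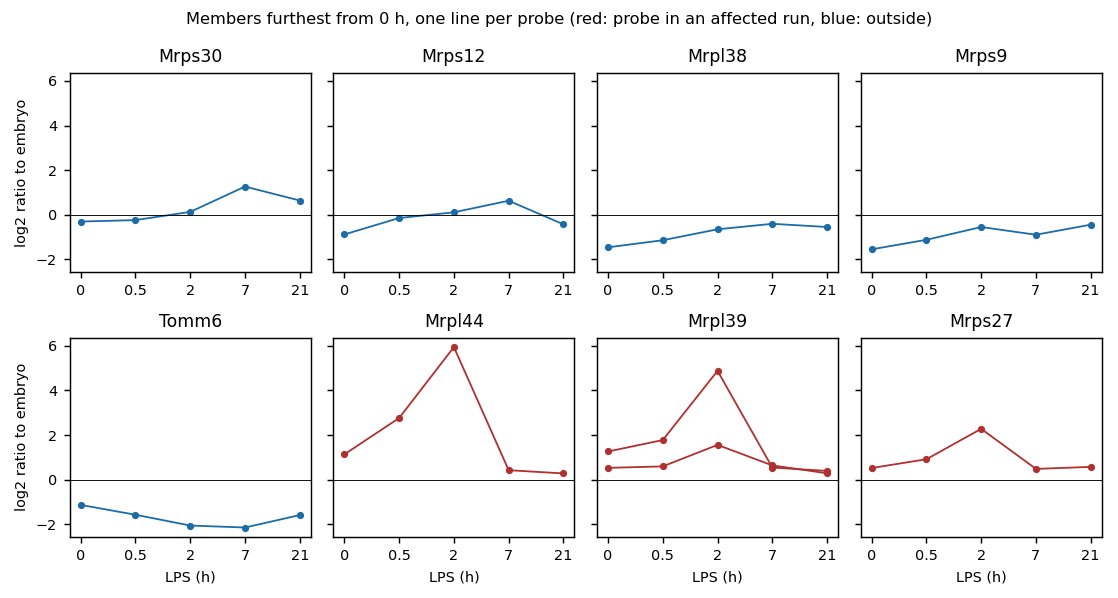
Log2 ratio to embryo RNA, relative to the array median (vertical axis), at 0, 0.5, 2, 7 and 21 h of LPS (horizontal axis, evenly spaced) for 8 members, 1 line per probe, red where the probe lies in an affected run and blue where it does not. Mrps30, Mrps12 and Mrpl38 are highest and Tomm6 is lowest at 7 h, Mrps9 is highest at 21 h, and the lines of Mrpl44, Mrpl39 and Mrps27 peak at 2 h.

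Most other small subunit genes moved little at the late times. Mrps11 had ratios of 0.29, 0.19, 0.19, 0.27 and 0.39, all 5 within 0.20 of each other. Mrps21, the member with the most probes (8), averaged -0.04, 0.26, 0.03, -0.09 and -0.11. The lower end at 21 h was Mrps28 with a change of -0.46, and at 7 h it was Mrps14, measured by 3 probes, with a change of -0.51. Mrps36, which is now known as a component of the 2-oxoglutarate dehydrogenase complex rather than of the ribosome, changed by 0.18 at 7 h and 0.09 at 21 h.

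The 14 inner membrane import genes had a median change of 0.13, 0.11, 0.21 and 0.12, the highest of the 4 groups at 2, 7 and 21 h. None of them lay 2-fold higher at 7 h (4.08% of all genes) or 21 h (3.05%), or lower (3.16% and 1.45%). Without centring of the arrays, which lowers all genes by a median of 0.22 at 7 h and 0.12 at 21 h, the group's median was -0.01 at 7 h and -0.02 at 21 h, and over the 11 genes left without the affected runs it was -0.12 at 7 h. At 0.5 h the median was -0.14 without the affected runs, with 8 of the 11 genes below 0, and -0.003 after quantile normalization. The sign of the group's median at 0.5, 7 and 21 h therefore follows the processing. The small subunit group also changed sign without centring, to -0.09 at 7 h and -0.10 at 21 h.

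Single import genes differed more than the group. Timm13, a small chaperone of the intermembrane space that works with Timm8a1, had -0.32, 0.09, 0.08, 0.37 and 0.48 over 2 probes. It changed by 0.69 at 7 h and 0.80 at 21 h (SD over probes 0.07 at 21 h), the highest of the group at 21 h, with both probes in affected runs. Timm10, the chaperone that pairs with Timm9, had -0.06, 0.72, 1.14, 0.67 and 0.40. Its 2 probes parted at 7 h: the one inside an affected run changed by 0.04 and the one outside by 1.42. Timm9 itself, with 1 probe, changed by -0.46, -0.18, -0.14 and -0.07 at 0.5, 2, 7 and 21 h, so the partners did not move together.

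The presequence translocase and its motor gave mixed values. Timm23, the channel, changed by 0.23 at 7 h and -0.03 at 21 h. Its partner Timm17a, over 4 probes, changed by 0.01 at 7 h and 0.08 at 21 h. Timm50, the receptor on the inner side, changed by 0.20 and -0.15 at these times. Timm44, which tethers the import motor on the matrix side, had ratios of 0.01, -0.53, -0.43, -0.38 and -0.50. All 4 of its LPS arrays read below 0 h, and its change of -0.51 at 21 h was the lowest of the group. Of the carrier translocase, Timm22, the channel, changed by -0.11 at 7 h and 0.17 at 21 h, and Timm10b, over 5 probes, by -0.10 and 0.01.

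The 9 outer membrane genes had the lowest median change of the 4 groups at 7 h and 21 h. Their median ratio was 0.18, 0.11, 0.09, -0.13 and -0.12 at 0, 0.5, 2, 7 and 21 h, and their median change was -0.01, -0.16, -0.26 and -0.26 at 0.5, 2, 7 and 21 h. At 0.5 h 5 of the 9 lay below their 0 h value, against 40.8% of all genes. At each of 2, 7 and 21 h, 7 of the 9 lay below their 0 h value, against 44.0%, 50.1% and 47.5% of all genes. The differences were small, and only Tomm6 passed 1.5-fold at any time. Over all genes, 53.4% stayed within 1.5-fold at all 4 times. The sign of the group's median at 2, 7 and 21 h was negative under each other scaling: -0.12, -0.48 and -0.40 without centring, -0.35, -0.30 and -0.31 after quantile normalization, and -0.29, -0.22 and -0.24 without the affected runs, over the 6 genes left. Against the 0.5 h array it was -0.25 at 7 h and -0.22 at 21 h.

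The larger negative changes belonged to 1 of the receptors, the channel and its paralogue, and 1 small subunit. Tomm70a, the receptor for carrier proteins, had a mean over 3 probes of 0.24, 0.09, 0.09, -0.21 and -0.24. Its change was -0.45 at 7 h and -0.48 at 21 h (SD over probes 0.30 at 21 h), and each of its 3 probes, all in affected runs, read below 0 h on both late arrays. Tomm40, the channel itself, had 0.53, 0.56, 0.25, 0.18 and 0.14, so that the 7 h and 21 h arrays were its lowest. Its paralogue Tomm40l changed by -0.43 at 7 h and -0.42 at 21 h.

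Tomm6, a small subunit of the complex, had the lowest changes of all 95 members at 2 h and 7 h with arrays centred on their median. Its ratios were -1.13, -1.57, -2.06, -2.15 and -1.59 from 1 probe outside the affected runs. All 4 LPS arrays read below 0 h, by -0.93 at 2 h, -1.01 at 7 h and -0.46 at 21 h on the log2 scale. Against the 0.5 h array the change was -0.57 at 7 h and -0.01 at 21 h. After quantile normalization Tomm6 changed by -0.86 at 2 h, and Mrps16 (-1.83) and Mrps22 (-0.88) lay lower. At 7 h it then changed by -0.99, short of 2-fold, and Mrpl44 (-1.23) lay lower. The 2 other small subunits differed from Tomm6: Tomm5 changed by 0.05 at 7 h and 0.08 at 21 h, and Tomm7 by -0.08 and -0.06. Tomm20, the receptor for presequences, changed by -0.03 and -0.07, and Tomm22, the central receptor, by 0.07 and 0.11. Tomm34, a cytosolic partner of the import path, changed by -0.26 at both times.

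**Figure D4:**
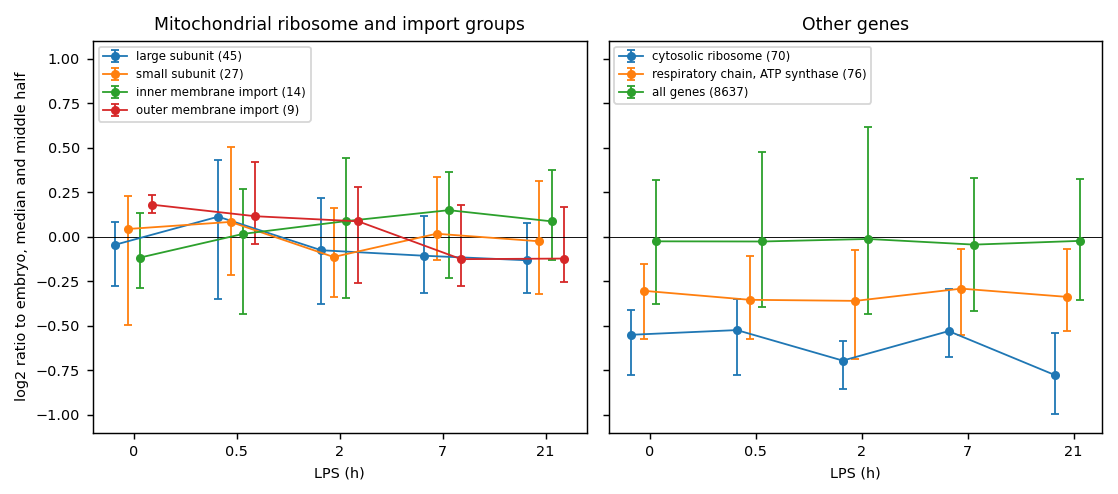
Points are the median log2 ratio to embryo RNA, relative to the array median (vertical axis), at 0, 0.5, 2, 7 and 21 h of LPS (horizontal axis), and bars the middle 50% of genes. The left panel holds the 4 groups of members and the right panel cytosolic ribosomal protein genes, respiratory chain and ATP synthase genes, and all genes; the outer membrane group stands at 0.18 at 0 h and at -0.13 and -0.12 at 7 h and 21 h, and the cytosolic ribosome lies lowest on all 5 arrays.

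The 2 h array needs separate treatment, because the members furthest from 0 h there have probes in affected runs. Mrpl44, with 1 probe, had ratios of 1.13, 2.76, 5.94, 0.42 and 0.28, which is 1.63 above 0 h at 0.5 h and 4.81 above it at 2 h. Mrps27, an RNA-binding protein of the small subunit, had 0.52, 0.91, 2.28, 0.48 and 0.57. Mrpl39 had 0.89, 1.18, 3.22, 0.59 and 0.34, and its 2 probes, both in affected runs, changed by 3.61 and 1.03 at 2 h. In all 3 genes the 7 h array was back at or below the 0 h value. Mrps18a, placed in the large subunit by structures, changed by 1.0 at 2 h and 0.32 at 7 h, again from 1 probe in an affected run.

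Where a gene had probes of both kinds, they often disagreed early. Mrpl48 of the large subunit changed at 2 h by 3.09 at its probe inside an affected run and by -0.23 at its probe outside. Mrpl55 changed by 1.5 inside and 0.19 outside. Timm29, a subunit of the carrier translocase, was an exception, with 1.16 inside and 1.96 outside at 2 h, and Timm10 changed by 1.13 inside and 1.26 outside. Over the 33 members with both kinds, the inside value was the higher one in 23 at 0.5 h, 21 at 2 h, 15 at 7 h and 13 at 21 h. The median change inside and outside was 0.18 and 0.05 at 0.5 h, 0.29 and 0.01 at 2 h, 0.04 and 0.003 at 7 h, and 0.04 and 0.07 at 21 h. Without the affected runs, 75 members were left, of which 3 lay at least 2-fold higher at 2 h (4.22% of 5996 genes) and 0 at 0.5 h (1.28%). These 3 were Mrps9, Timm10 and Timm29. None of the 75 lay 2-fold lower at 0.5 h (0.984%) or at 2 h (1.55%). On the later arrays 4 of them passed 2-fold upward and 1 downward at 7 h (4.52% and 2.87%), and 1 upward and 0 downward at 21 h (2.55% and 1.08%). The fourth gene at 7 h was Timm10, by its outside probe.

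**Figure D5:**
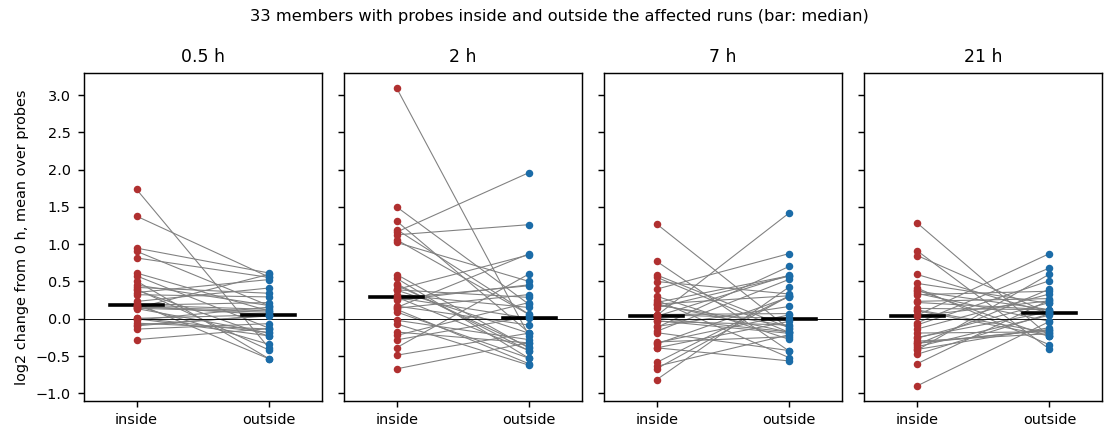
Log2 change from 0 h (vertical axis), averaged over the probes inside (left) and outside (right) the affected runs, for the 33 members that have both, joined by lines, at 0.5, 2, 7 and 21 h; black bars are medians. Inside values lie above outside values in 23 and 21 members at 0.5 h and 2 h, and in 15 and 13 at 7 h and 21 h.

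The steadiness of the members was described over all times together. Of the 95, 67 (70.5%) stayed within 1.5-fold of 0 h at all 4 times, against 53.4% of all genes. The 5 arrays spanned less than 2-fold in 83 members (87.4%), against 72.0% of all genes. Members had more probes than other genes, a mean of 2.05 against 1.60, and averaging narrows a range, so the shares were also taken by probe number. Among genes with 1 probe, 63.2% of 38 members and 48.6% of all stayed within 1.5-fold. Among genes with several probes it was 75.4% of 57 members and 62.5% of all. Without the affected runs the shares were 73.3% of 75 members and 59.9% of all.

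Cytosolic ribosomal and respiratory chain genes were as steady or steadier over all 4 times. Of 70 cytosolic ribosomal protein genes, 80.0% stayed within 1.5-fold of 0 h at all 4 times, and 57 of 76 nuclear genes for the respiratory chain and ATP synthase did. At 7 h alone it was 94.3% and 92.1%, against 88.4% of members. At 21 h alone the order was reversed, with 88.6% and 86.8% against 93.7% of members. For these lists the measure over all 4 times was not split by probe number, nor taken without the affected runs. Members among themselves differed over all 4 times: 8 of the 9 outer membrane genes (88.9%) stayed within 1.5-fold, against 71.1% of large subunit, 66.7% of small subunit and 64.3% of inner membrane genes. Narrow ranges over the 5 arrays included Tomm22 (0.17), Timm8a1 (0.18), Tomm7 (0.21) and Timm10b (0.23) besides Mrpl32 and Mrps11, although several of these are means of unlike probes.

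The cytosolic and mitochondrial ribosomes differed in where their ratios lay. The members' median lay near 0, as given above, while cytosolic ribosomal protein genes had a median log2 ratio of -0.55, -0.52, -0.70, -0.53 and -0.78 at 0, 0.5, 2, 7 and 21 h, below the members on all 5 arrays. The median change of the members was 0.03 at 7 h and -0.03 at 21 h, and that of the cytosolic genes was 0.08 and -0.18. Between 7 h and 21 h the members had a median change of -0.03 and 52.6% of them lay lower, against -0.28 and 85.7% for the cytosolic genes and 0.03 and 47.1% for all genes. Without the affected runs the cytosolic genes still had a median change of -0.24 between these times, over 62 genes. Nuclear genes for the respiratory chain and ATP synthase, complexes that the mitochondrial ribosome helps to complete, had a median ratio of -0.30, -0.35, -0.36, -0.29 and -0.34. Their median change was 0.05 at 7 h and 0.03 at 21 h.

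Single respiratory chain genes did pass 2-fold upward, 3 of 76 at 7 h (4.08% of all genes) and 2 at 21 h (3.05%). These shares are near those of all genes. None passed it downward at 7 h (3.16%) or 21 h (1.45%). Ndufv1, the subunit of complex I that binds NADH, had ratios of -0.20, -0.44, 0.24, 1.04 and 0.95, 1.24 and 1.15 above 0 h on the late arrays. Ndufs8, an iron-sulphur subunit of the same complex, changed by 1.24 and 0.67, and Atp5j, a coupling subunit of ATP synthase, by 1.13 and 0.65.

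Genes that serve mitochondrial translation and the expression of mitochondrial DNA, 34 measured, had a median change of 0.04 at 7 h and 0.09 at 21 h. Of these, 3 passed 2-fold upward at 7 h (4.08% of all genes) and none downward (3.16%). At 21 h none passed it upward (3.05%) or downward (1.45%). Polg, the polymerase that copies mitochondrial DNA, had ratios of -0.76, -0.24, 0.24, 1.31 and 0.05 from 1 probe. Pnpt1, a polynucleotide phosphorylase of mitochondrial RNA, had -0.57, -0.03, 0.68, 1.15 and 0.24 over 2 probes. Both were highest at 7 h and lower again at 21 h, as Mrps12 and Mrps30 were. Nsun4, an rRNA methyltransferase that acts in assembly of the mitochondrial ribosome, changed by 1.03 at 7 h and 0.95 at 21 h.

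The import motor, chaperones and processing enzymes, 26 genes, had a median change of 0.16 at 7 h and 0.06 at 21 h. At 7 h, 0 of them passed 2-fold upward (4.08% of all genes) or downward (3.16%). At 21 h 1 did so upward (3.05%) and 0 downward (1.45%). This was Pmpcb, a subunit of the protease that removes presequences, with a change of 1.16 from a probe in an affected run. Grpel1, the nucleotide exchange factor of the motor's chaperone, changed by 0.41, 0.74, 0.78 and 0.66 at 0.5, 2, 7 and 21 h, with all 4 LPS arrays above 0 h. Of 10 regulators of mitochondrial biogenesis, 1 lay at least 2-fold lower at 7 h (3.16% of all genes) and 1 at 21 h (1.45%). Nrf1, the factor named for nuclear genes of respiration, read -0.59, -0.79, -0.84, -2.36 and -1.29, lowest at 7 h. Myc, which also drives ribosome production, changed by 1.29, 0.89, -0.91 and -1.66 at 0.5, 2, 7 and 21 h. Both rest on 1 probe, that of Myc inside an affected run and that of Nrf1 outside.

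Other cell types were checked by their markers, since fewer cells of a type and less RNA per cell cannot be told apart in such bulk RNA. The macrophage markers kept a median ratio between 1.26 and 1.68 on the 5 arrays, but single markers moved far. At 7 h, 9 of the 15 stayed within 1.5-fold of 0 h, against 77.7% of all genes, with 4 higher and 2 lower. Sirpa changed by -3.46 at 7 h, and Fcgr1 by 6.83 at 0.5 h from 1 probe in an affected run. Markers of 8 lymphocyte genes lay higher than at 0 h by a median of 0.30, 0.60, 0.37 and 0.29 at 0.5, 2, 7 and 21 h, led by Cd79b with a change of 2.41 at 7 h. Markers of neutrophil granules, 7 genes, changed by a median of 0.21 at 7 h and -0.37 at 21 h. They did not move together at 21 h: Mmp9 changed by 1.86, Ngp by -1.62 and Mpo by -1.25. Thus 1 lay at least 2-fold higher (3.05% of all genes) and 2 lower (1.45%). The 16 stromal markers had a median ratio of -1.03, -1.66, -0.96, -1.14 and -1.02 at 0, 0.5, 2, 7 and 21 h, and the 11 left without the affected runs had -1.29, -2.37, -2.75, -2.37 and -2.08. Taken gene by gene, the median change at 0.5, 2, 7 and 21 h was -0.01, 0.01, -0.08 and 0.20 for the 16. For the 11 it was -0.01, 0.10, 0.36 and 0.36. Of the 11, 4 lay below 0 h at 7 h and 2 at 21 h, so most did not fall at these times. The part of these shifts in the members' values was not tested.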

How the data were processed

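Log ratios of 5 two-colour arrays were used as deposited by the authors, in a table read here as log10 ratios. The labels do not describe the authors' background correction or normalization, nor the log base. The spread of the values made base 10 the likelier reading. The labels name Cy3 and amino-allyl labelling without saying which channel carried it.

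Values were multiplied by 3.32, and the median of the 18296 probes with a value on all 5 arrays (of 19828) was subtracted from each array. Of all probes, 14759 carried 1 gene symbol in the platform annotation of 2008, 170 several and 4899 none. Entrez identifiers matched 14628 to the gene table of GRCm38.p6, which changed 0 of the members' symbols. The 13782 named probes on all 5 arrays were averaged per symbol into 8637 genes. Changes are differences of log2 ratios from the 0 h array. For genes with several probes, the SD over probes, pooled, was 0.37, 0.61, 0.48 and 0.42 for members at 0.5, 2, 7 and 21 h, against 0.67, 0.97, 0.51 and 0.47 for all genes. It is technical. With 1 array per time no test was possible, and 2-fold and 1.5-fold are rules of size.

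The members and gene lists were chosen with earlier results of these data known. Members were named if they were among the 4 highest or lowest at a time or at 0 h, 2-fold from 0 h at 7 h or 21 h, measured by 3 or more probes, or at either end of a group at 21 h. From each companion list up to 3 genes with the largest change at 7 h and at 21 h were eligible. The other members named (among them Timm8a1, Timm23, Timm50, Tomm5, Tomm7, Tomm20, Tomm34, Tomm40, Tomm40l, Mrpl32, Mrpl48, Mrps11 and Mrps18a) were chosen after their values were seen. The counting and averaging steps were tested on simulated data. Python 3.11.15, numpy 2.4.6, pandas 2.3.3 and matplotlib 3.10.9 were used. The alternatives tried were no centring, quantile normalization, leaving out the affected runs, reading the values as log2, 1 probe per gene, the 0.5 h array in place of the 0 h array, 1.5-fold, probes measured on the arrays compared, and symbols as annotated by the platform.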

Additional observations from a re-analysis of the deposited data

How the results depend on the processing

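With 1 array per time, neither biological nor array error can be separated from the changes, and a gene with 1 probe has no internal check. No paired analysis was possible because each time has 1 array. For 14 results, 87 alternative values were compared with those given, of which 50 stayed close and 37 moved by over 0.1 on the log2 scale or by over 1.5 times in a count; the cause was not tested. A further 28 are not counted, since they change the members little or not at all and so show no stability: symbols as annotated changed no member, and probes measured on the arrays compared added at most Mrpl34. Some of the 50 could not have moved. Reading the values as log2 shrinks every value by the same factor, and the largest median, 0.131 at 0.5 h, became 0.039. No median could therefore shift by over 0.1 under this reading. The counts of 0 members at least 2-fold lower at 0.5, 2 and 21 h could not rise under it. These values also show no stability. The members' median change at 0.5 h was 0.014 after quantile normalization. With 1 probe per gene, the probe kept had the highest mean ratio over the 5 arrays, a choice that favours probes raised early. The members' median change at 2 h was then 0.13, against 0.107 over all genes. Without centring the members' median change at 2 h was 0.014. At 7 h it was -0.19 without centring (-0.22 over all genes) and -0.077 against the 0.5 h array. At 21 h it was -0.18 without centring (-0.12 over all genes), 0.008 without the affected runs and 0.043 with 1 probe per gene. Its sign at 2, 7 and 21 h therefore follows the processing. The median ratio at 0 h was 0.085 without centring, -0.16 without the affected runs and 0.12 with 1 probe per gene. In the counts that follow, brackets give the share of all genes past the same limit. Members at least 2-fold higher at 0.5 h numbered 0 after quantile normalization (2.78%), without the affected runs (1.28%) and with values read as log2 (0.648%). They numbered 3 with 1 probe per gene (8.52%) and 11 at 1.5-fold (12.7%). At 2 h the number higher was 3 after quantile normalization (4.98%) and without the affected runs (4.22%), and 1 with values read as log2 (2.0%). It was 17 with 1 probe per gene (16.1%) and at 1.5-fold (21.8%), and 4 against the 0.5 h array (8.04%). At 7 h it was 0 with values read as log2 (0.081%), 1 against the 0.5 h array (2.72%) and 9 at 1.5-fold (11.6%). At 21 h it was 0 without centring (2.2%), with values read as log2 (0.0926%) and against the 0.5 h array (2.26%). It was 3 after quantile normalization (3.75%), 4 with 1 probe per gene (4.02%) and 5 at 1.5-fold (9.12%). Members at least 2-fold lower numbered 1 at 0.5 h (3.45%) and 1 at 2 h (4.57%) after quantile normalization, and 3 at 2 h at 1.5-fold (5.71%). At 7 h they numbered 0 with values read as log2 (0.0579%) and 2 with 1 probe per gene (4.09%) or at 1.5-fold (10.8%). At 21 h they numbered 1 after quantile normalization (4.53%), against the 0.5 h array (7.26%) or at 1.5-fold (6.48%). Other runs would be marked as affected if the values were log2.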

Other observations

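Some members with 3 or more probes held probes that went different ways, so that their mean hides the spread. Mrpl37, a large subunit gene, had a mean change of -0.10 at 7 h and a range of only 0.25 over the 5 arrays. Its 4 probes, none in an affected run, changed at 7 h by -0.83, -0.50, -0.57 and 1.52, and the last of them had a ratio at 0 h of -2.37 where the others had 0.27, 0.27 and 0.49. Mrpl30 had probes at -0.44, -0.42 and -3.85 at 0 h, and the third sets its place among the lowest members. Mrps7 of the small subunit changed at 21 h by -0.17, -0.30 and 1.29, and Timm17b, the alternative partner of Timm23, by -0.41, 1.36 and 0.46. The 8 probes of Mrps21 changed at 21 h by between -1.09 and 0.47. Among members with 2 probes, Mrps17 had ratios of -2.04 and 0.96 at 0 h, yet its probes changed alike at 21 h, by 0.12 and 0.14.

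Tomm22, the steadiest of the outer membrane genes by its mean, also averaged unlike probes: at 2 h its 3 probes changed by 1.05, -0.15 and -0.38, and at 21 h by -0.12, -0.05 and 0.51. Timm10b, with a range of 0.23 by its mean, had 5 probes that changed at 7 h by 0.42, 0.10, 0.45, -0.47 and -0.97, and the 2 probes of Timm8a1 changed by 0.31 and -0.67.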
